A study of Mus musculus with 6 samples.

Results

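The genes described here are the liver X receptors (LXRs) and genes of sterol efflux and lipid handling grouped with them. Whether LXRs control each of these genes, Abca7 among them, was not tested. The 9 genes, Abca1, Abcg1, Apoe, Nr1h2, Nr1h3, Mylip, Lpcat3, Abca7 and Lpl, were chosen by function and matched by symbol, with the results of the inhibitor and control comparison already known. They are 9 of the 25033 gene symbols listed, all 9 had reads in every library, and all 9 passed the filter on low counts that left 12978 genes. Because of how they were chosen, their differences between the groups are given as a description, and their count is no support for anything.

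Haematopoietic stem cells (HSCs), which give rise to all blood lineages, had been treated with a miR-31-5p inhibitor or with a control RNA and transplanted, and GFP+ cells from recipient marrow were sorted and sequenced as mRNA libraries. There were 3 libraries from the inhibitor group and 3 from the control group, all from bone marrow of C57BL/6J mice labelled with an age of 6 months. Both groups had been transplanted, so the control group is not untreated marrow. The labels state neither what drives GFP nor whether each library is a separate animal, so p-values here cover the spread between these samples alone, and that spread may be technical.

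LXRs are nuclear receptors that sense oxysterols, the oxidised derivatives of cholesterol. They bind DNA as partners of retinoid X receptors, at pairs of hexamers spaced by a few bases, and they raise transcription of transporters and acceptors that remove cholesterol from the cell when sterol is plentiful. In mouse marrow, the ABC transporters of this pathway are known to restrain the expansion of stem and progenitor cells by lowering membrane cholesterol.

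The inhibited microRNA and the best known LXR element among these genes are shown first, since the one names the treatment and the other the receptor's way of acting. The mature mouse miR-31-5p (RefSeq, GRCm38.p6, chr4:88910614-88910635, minus strand) is given with its seed, bases 2 to 8, in capitals.
mmu-miR-31-5p: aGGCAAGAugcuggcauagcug
A transcript holding the complement of that seed, TCTTGCC, in its 3′ untranslated region is a candidate target of the microRNA. None of the 9 genes held that 7-letter match in the longest annotated 3′ untranslated region (lengths 110 to 3703 bases, GENCODE M21), against 10.7% of 19221 genes searched. That share was not matched for the length of the region. The shorter match CTTGCC, which lacks the letter opposite the last base of the seed, occurred 2 times in Abca1 and 1 time in Abcg1, and in none of the other 7 genes. Whether an A follows these matches, which would make another known 7-letter type of site, was not searched. That shorter match is common: 29.6% of the genes searched hold it, and 71.4% of the 2280 genes whose region has at least 3000 bases, as those of Abca1 (3156) and Abcg1 (3703) do.

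The start of Abca1 is shown because its element is the textbook example of LXR binding near a promoter. The window runs from 250 bases before to 50 bases after the start given for this promoter (RefSeq, GRCm38.p6, chr4:53159846-53160145, minus strand), with the element in capitals.
Abca1 promoter: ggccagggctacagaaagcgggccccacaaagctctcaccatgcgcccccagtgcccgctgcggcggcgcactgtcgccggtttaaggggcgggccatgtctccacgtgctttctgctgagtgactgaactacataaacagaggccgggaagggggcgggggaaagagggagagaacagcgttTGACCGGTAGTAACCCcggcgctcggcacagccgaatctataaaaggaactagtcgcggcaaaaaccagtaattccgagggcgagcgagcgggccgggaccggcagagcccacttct
The capitals lie 67 to 52 bases before that start. The gene as annotated begins further upstream, at 53159988, so distances here are from the start given for the promoter only. On the opposite strand the capitals read as a direct repeat of the hexamer AGGTCA with a spacer of 4 bases, the DR4 type of element.
Abca1 element: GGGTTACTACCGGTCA
consensus: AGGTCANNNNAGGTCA
Counted from 1 at the 5′ end of the consensus, the element differs from it by A1G, C5T and A11C. The promoter table held 10 windows for 7 of the genes (Abca1, Apoe, Nr1h2, Nr1h3, Mylip, Lpcat3 and Abca7). Abca1 alone among these 7 genes had a DR4 match on either strand with up to 3 mismatches in the 12 fixed letters, a match that 21.9% of the 32851 windows in the table also hold. The palindromic E-box CACGTG, which begins 147 bases before the Abca1 start, was in 7.15% of windows, and both motifs together were in 1.6%. A match of letters says nothing of whether a receptor binds there, and a window without one says nothing of elements elsewhere.

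Across the series, library totals were 16873188 to 19496200 counts in the inhibitor group and 19866738 to 21245861 in the control group. The chi-square of counts between 2 libraries of a group, divided by its degrees of freedom, was 3.04 to 4.24 among inhibitor and 7.55 to 16.78 among control libraries, above counting noise, so no 2 libraries were counted as 1. Control libraries stood further apart from each other, and the ribosomal RNA precursor Rn45s had 1784 to 3145 counts in inhibitor libraries against 3667 to 61656 in control libraries. Mir31 had 0 counts in all 6, where a count of 0 allows up to 3 counts, or 0.141 to 0.178 CPM, by counting error alone. This gives no measure of the inhibition, because mRNA libraries do not capture mature microRNAs by design. In bulk libraries such as these, fewer cells of a type and less RNA per cell cannot be told apart.

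In the inhibitor group, the transporters Abca1 and Abcg1, the acceptor Apoe, the lipase Lpl, the ubiquitin ligase Mylip and the receptor Nr1h3 were higher, and the other receptor Nr1h2, the transporter Abca7 and the acyltransferase Lpcat3 did not pass the threshold. The changes ran down from 5.06-fold for Abca1 to 1.52-fold for Mylip among the 6 that were higher. Each gene was read from one fit across all 12978 tested genes (edgeR's quasi-likelihood test, adjusted p under 0.05 after Benjamini-Hochberg adjustment). In that fit 40.5% of all tested genes passed, 20.4% higher and 20.1% lower, and 6 of the 9 genes here were higher and 0 lower. In the same 6 genes every inhibitor library lay above every control library, which held for 25.9% of tested genes. The median log2 change was 0.64 over the 9 genes and -0.01 over all tested genes.

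**Figure D1:**
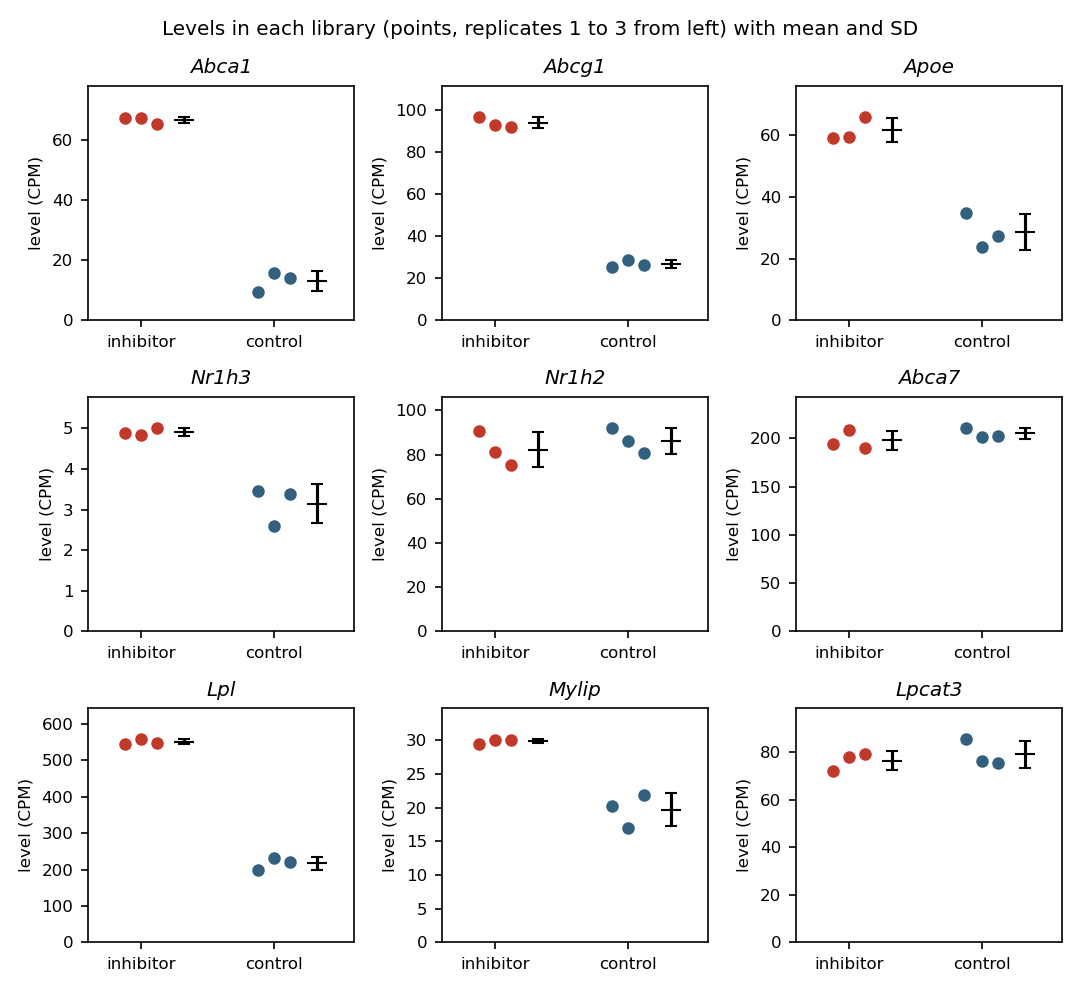
Levels in CPM (y axis from 0) of the 9 genes in each of the 3 inhibitor and 3 control libraries; points are libraries and the bar beside them is the mean with its SD. The groups do not overlap for Abca1, Abcg1, Apoe, Nr1h3, Lpl and Mylip, and overlap for Nr1h2, Abca7 and Lpcat3.

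Abca1 encodes the transporter that hands cholesterol and phospholipid to lipid-poor apolipoprotein A-I, the first step of high-density lipoprotein formation (mm10 chromosome 4, 53030789 to 53159988). It had 67.2, 67.3 and 65.4 CPM in inhibitor libraries 1 to 3, against 9.38, 15.9 and 14.2 CPM in control libraries 1 to 3. The inhibitor libraries were nearly equal and all lay far above the controls, of which library 1 was the lowest. The means were 66.7 ± 1.07 CPM in the inhibitor group and 13.2 ± 3.37 CPM in the control group (SD, n = 3 libraries each), a log2 change of 2.34 ± 0.14 (± SE). Ordered from the highest log2 change to the lowest, Abca1 stood at place 128 of the 12978 tested genes.

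Abcg1 encodes the half-transporter that passes cholesterol on to particles already lipidated (chromosome 17, 31057694 to 31117984). Its levels were 96.8, 92.8 and 91.8 CPM in inhibitor libraries 1 to 3, and 25.1, 28.8 and 26.1 CPM in control libraries 1 to 3. The groups were far apart and tight, with means of 93.8 ± 2.61 CPM in the inhibitor group and 26.7 ± 1.88 CPM in the control group (SD, n = 3 each). The log2 change was 1.81 ± 0.07, or 3.52-fold. Within a library, and with levels divided by transcript length, Abca1 stood at 0.394 to 0.411 of the level of Abcg1 in inhibitor libraries and at 0.212 to 0.313 in control libraries.

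Abca7, a close relative of Abca1 that also moves phospholipid and is known in phagocytosis (chromosome 10, 79996453 to 80015572), did not pass. It had 194.4, 209.3 and 190.02 CPM in the inhibitor libraries and 211.3, 201.7 and 202.7 CPM in the control libraries. The values of the groups were interleaved, and the log2 change was -0.05 ± 0.06, with a 95% interval of -0.17 to 0.07. The level per length of Abcg1 was 0.505 to 0.567 of that of Abca7 in inhibitor libraries, against 0.136 to 0.162 in control libraries.

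Apoe encodes apolipoprotein E, which accepts cholesterol at the cell surface and is a ligand for the uptake of lipoproteins (chromosome 7, 19696244 to 19701310). It had 59.1, 59.4 and 66.02 CPM in inhibitor libraries 1 to 3 and 34.8, 23.6 and 27.4 CPM in control libraries 1 to 3. Control library 1 was the highest control, the reverse of its place for Abca1, and it still lay below every inhibitor library. The log2 change was 1.10 ± 0.11, or 2.15-fold.

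Lpl encodes lipoprotein lipase, which frees fatty acids from the triglyceride of lipoproteins (chromosome 8, 68880555 to 68906932). With 546.2, 560.1 and 549.03 CPM in the inhibitor libraries, against 198.4, 231.8 and 221.1 CPM in the control libraries, it had the highest level of the 9 genes per length of transcript in both groups. The inhibitor libraries were within a narrow band above all controls. The means were 551.8 ± 7.34 CPM in the inhibitor group and 217.1 ± 17.05 CPM in the control group (SD, n = 3 each), a log2 change of 1.35 ± 0.06.

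The receptors themselves differed in level and in change. Nr1h3, which encodes LXR alpha (chromosome 2, 91184061 to 91202829), is the form known from liver, fat and macrophages. It had 4.88, 4.84 and 5.02 CPM in inhibitor libraries 1 to 3, and 3.46, 2.6 and 3.38 CPM in control libraries 1 to 3, which rest on only 52 to 95 counts per library. The groups did not overlap, with a log2 change of 0.64 ± 0.18, or 1.56-fold. At a stricter threshold of 0.01 it did not pass. Some 34 exon bases of Nr1h3 are shared with Gm13783 on the same strand.

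Nr1h2, which encodes the widely expressed LXR beta (chromosome 7, 44549616 to 44553968), had 90.6, 81.1 and 75.1 CPM in the inhibitor libraries and 92.2, 86.2 and 80.5 CPM in the control libraries. The groups overlapped, and the log2 change was -0.07 ± 0.07, with a 95% interval of -0.23 to 0.09. Per length of transcript, Nr1h2 was 12.9 to 16.04 times the level of Nr1h3 in inhibitor libraries and 20.5 to 28.6 times in control libraries. These ranges did not overlap.

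Mylip, also called Idol, encodes the ubiquitin ligase that marks lipoprotein receptors for breakdown when LXRs are active (chromosome 13, 45389742 to 45411940). It had 29.5, 30.1 and 30.1 CPM in inhibitor libraries 1 to 3 and 20.3, 17 and 21.8 CPM in control libraries 1 to 3. All inhibitor libraries were above all controls, by a smaller step than for Abca1 and Abcg1, with a log2 change of 0.60 ± 0.10. Lpcat3, the enzyme that places polyunsaturated fatty acids into membrane phospholipids (chromosome 6, 124663094 to 124704716), had 72.1, 78.3 and 79.2 CPM in the inhibitor libraries and 85.9, 76.5 and 75.4 CPM in the control libraries. Its groups overlapped, and the log2 change was -0.05 ± 0.07, with a 95% interval of -0.20 to 0.09. Exons of Lpcat3 share 334 bases with Emg1 on the opposite strand, and with the strand of counting not given in the sources used here, reads there cannot be told apart.

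**Figure D2:**
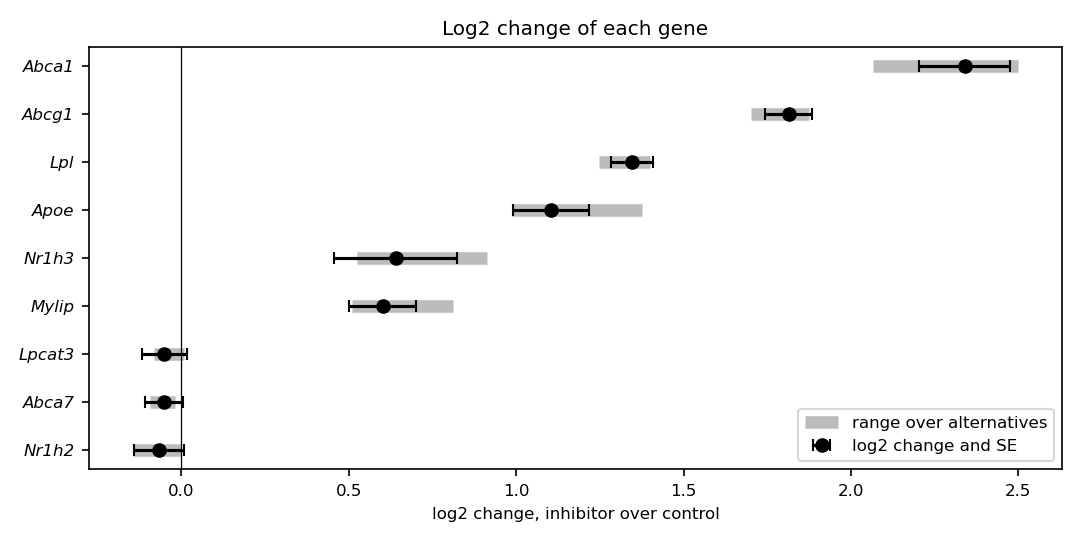
Log2 change of inhibitor over control (x axis) for each of the 9 genes; points are the fit over all 6 libraries with its SE, and grey bars run from the lowest to the highest of 15 alternative settings. The bars of the 6 higher genes stay to the right of 0, with Nr1h3 and Mylip at 0.52 to 0.91 and 0.51 to 0.81.

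Divided by transcript length, the order of levels in the inhibitor group was Lpl (136.3 CPM per kilobase), Apoe (48.3), Nr1h2 (40.96), Lpcat3 (30.6), Abca7 (29.9), Abcg1 (16.1), Mylip (10.03), Abca1 (6.5) and Nr1h3 (2.83). Only the neighbours Lpcat3 and Abca7 had library values that overlapped. In the control group it was Lpl (53.6 CPM per kilobase), Nr1h2 (42.96), Lpcat3 (31.7), Abca7 (30.97), Apoe (22.5), Mylip (6.6), Abcg1 (4.59), Nr1h3 (1.82) and Abca1 (1.28), and the neighbours Lpcat3 and Abca7 overlapped, as did Nr1h3 and Abca1. Apoe thus stood above Nr1h2, Lpcat3 and Abca7 in the inhibitor group and below them in the control group, and Abca1 was the lowest of the 9 in the control group. The lengths are those of the longest transcript of each symbol, so a gene read mostly from shorter transcripts is set too low. On the log2 scale, 7 of the 9 genes varied more among control than among inhibitor libraries, and Nr1h2 and Abca7 varied less. The share over all tested genes was not computed. Control libraries also stood further apart across genes in general (chi-square per degree of freedom 7.55 to 16.78, against 3.04 to 4.24). From the lowest to the highest library, Abca1 spanned 0.04 in the inhibitor group and 0.75 in the control group, the widest control span of the 9.

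**Figure D3:**
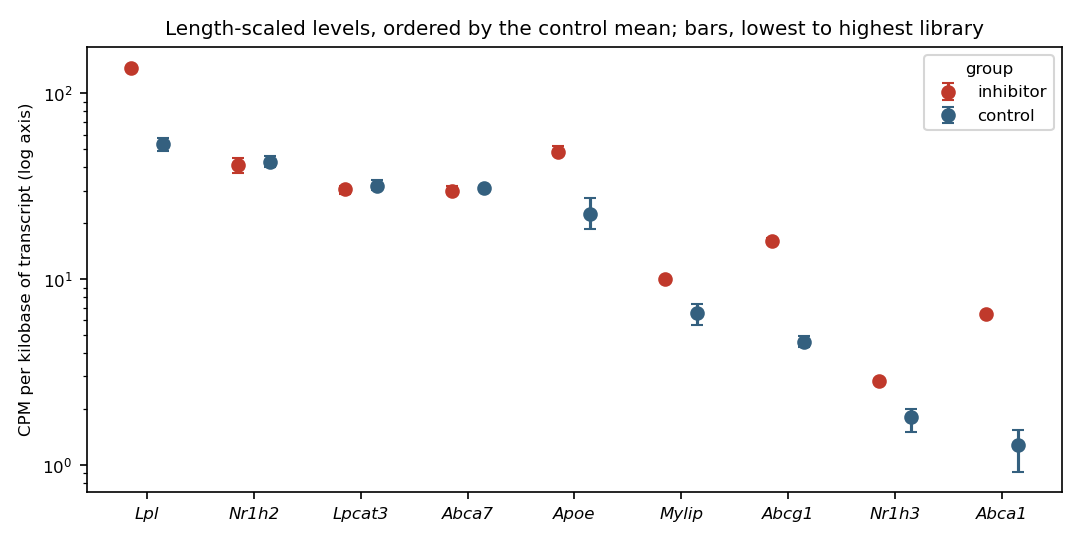
Level per kilobase of transcript (y axis, log scale) of the 9 genes in the inhibitor and control groups, ordered by the control mean; points are means of 3 libraries and bars run from the lowest to the highest library. Nr1h2 sits at 40.96 and 42.96 in the inhibitor and control groups, and Abca1, lowest in the control group at 1.28, is at 6.5 in the inhibitor group.

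Other known LXR targets moved both ways. Of 20 listed, 13 were tested, of which 4 rose, 7 fell and 2 did not pass. The median log2 change was -0.23. With 1 library left out, 3 to 4 rose and 6 to 7 fell. The background for this list and those below is all tested genes, of which 20.4% were higher and 20.1% lower. Arl4c, a small GTPase gene induced by LXR agonists, rose to 122.6 ± 3.76 CPM in the inhibitor group, against 45.7 ± 1.88 CPM in the control group (SD, n = 3 each). This was 2.68-fold, at an adjusted p = 7.71e-11 (edgeR, quasi-likelihood). Pltp, the phospholipid transfer protein, rose by 0.64 ± 0.11 on the log2 scale, the sphingomyelinase-like gene Smpdl3a by 0.36 ± 0.09 and the phagocytic receptor gene Mertk by 0.61 ± 0.20. These 3, like the lower genes other than Fasn and Scd2, were named after their values were seen.

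The 7 that fell were Fasn, Scd2, Acaca, Fads2, Acsl3, Srebf1 and Scd1. Fasn, the fatty acid synthase, fell to 381.4 ± 5.63 CPM in the inhibitor group, against 562.6 ± 11.5 CPM in the control group (SD, n = 3 each). Its log2 change was -0.56 ± 0.05, at an adjusted p = 5.21e-07 (edgeR, quasi-likelihood). The desaturase genes Scd2 and Fads2 had log2 changes of -0.54 ± 0.05 and -0.40 ± 0.05, and the carboxylase gene Acaca had -0.55 ± 0.06. The acyl-CoA synthetase gene Acsl3 changed by -0.32 ± 0.07 and Srebf1, the regulator of fatty acid synthesis that LXRs are known to induce, by -0.23 ± 0.06. Scd1 fell as well, at a low level (0.764 ± 0.356 CPM in the inhibitor group and 1.7 ± 0.48 CPM in the control group). Elovl5 (-0.14 ± 0.06) and Fads1 (-0.08 ± 0.06) did not pass. The 7 untested targets, among them Abcg5, Abcg8 and Cyp7a1, had 0 to 6 counts in a library.

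**Figure D4:**
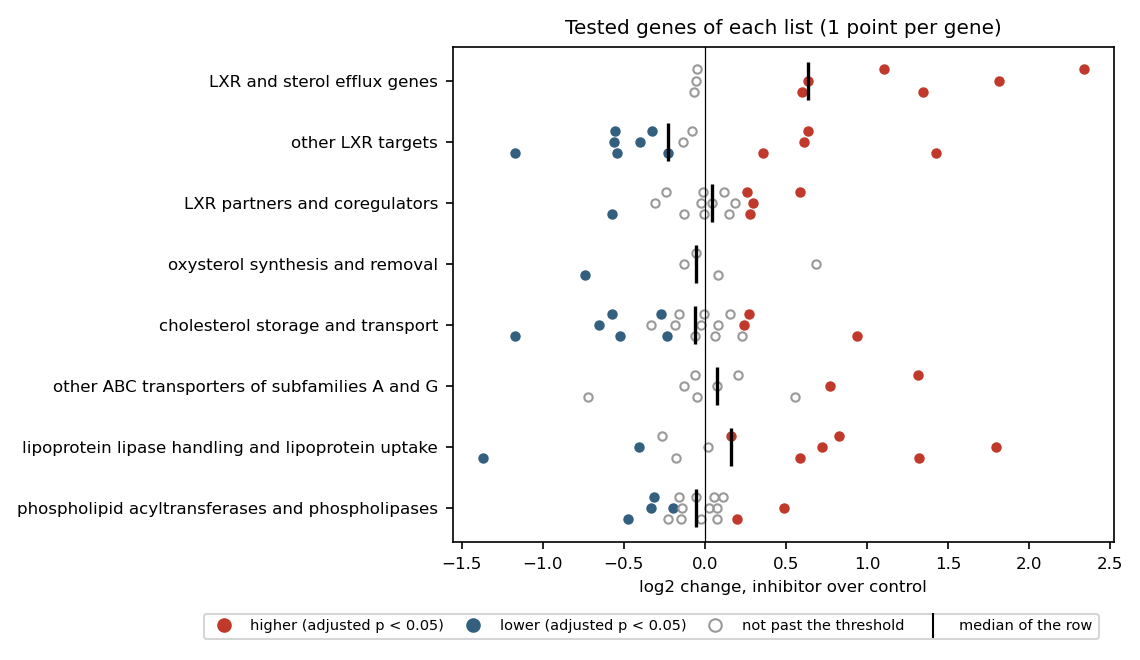
Log2 change of inhibitor over control (x axis) for each tested gene of the 9 genes described here and of 7 lists of related genes; filled points passed an adjusted p of 0.05 and black marks are medians. The other LXR targets fall on both sides of 0 with a median of -0.23, and the median of the 9 genes is 0.64.

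Most partners and coregulators of LXRs did not pass, as was so for tested genes in general, of which 40.5% passed. Of 17 listed, 15 were tested, of which 4 rose, 1 fell and 10 did not pass; the median log2 change was 0.04. Those that fell numbered 4 without control library 2, 3 without inhibitor library 1 and 2 without inhibitor library 2 or 3. Nrip1, a corepressor of nuclear receptors, rose by 0.59 ± 0.09 (129.7 ± 6.07 CPM in the inhibitor group and 86.2 ± 12.5 CPM in the control group) and the coactivator gene Ncoa2 by 0.30 ± 0.06, while the coactivator gene Ppargc1b changed by -0.57 ± 0.09. Their adjusted p-values were 0.000134, 0.00142 and 0.000169 in edgeR's quasi-likelihood test. The obligate partner genes Rxra (-0.24 ± 0.10) and Rxrb (-0.31 ± 0.13) did not pass, and the third, Rxrg, named after its values were seen, had 0 counts in each inhibitor library against 15, 2 and 12 in control libraries 1 to 3, too few to be tested.

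Genes that make or remove oxysterols, the ligands of LXRs, were tested in part. Of 8 listed, 5 were tested, of which 0 rose, 1 fell and 4 did not pass; the median log2 change was -0.05. The member that fell, the side-chain cleavage enzyme gene Cyp11a1, had a log2 change of -0.74 ± 0.09 (21.2 ± 1.16 CPM in the inhibitor group and 35.5 ± 2.75 CPM in the control group, adjusted p = 1.03e-05, edgeR). The enzyme genes Ch25h, Cyp7b1 and Cyp46a1 had 0 to 4 counts in a library.

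Genes of cholesterol storage and transport in the cell also moved both ways. Of 20 listed, 19 were tested, of which 3 rose, 6 fell and 10 did not pass. The median log2 change was -0.06. Both directions are common in these data, with 20.4% of all tested genes higher and 20.1% lower. With 1 library left out, 3 to 4 of the list rose and 4 to 6 fell. Lipa, the lysosomal acid lipase that frees cholesterol from its esters, rose 1.92-fold, with 254.8 ± 7.52 CPM in the inhibitor group and 132.8 ± 5.51 CPM in the control group (adjusted p = 2.68e-09, edgeR). Stard4, a sterol carrier gene, fell by 0.65 on the log2 scale (SE 0.06), and Scarb1, the receptor for high-density lipoprotein, by 0.52 (SE 0.06). The lysosomal exporter gene Npc1 (0.06 ± 0.06) and the esterifying enzyme gene Soat1 (0.08 ± 0.06), named after their values were seen, did not pass.

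Among the other ABC transporters of subfamilies A and G, 9 of 15 were tested, of which 2 rose, 0 fell and 7 did not pass; the median was 0.07. Without inhibitor library 2, 1 rose, and without control library 1, 1 fell. Abca5 rose by 0.77 ± 0.15 and Abca8b, at 1.36 ± 0.308 CPM in the inhibitor group and 0.535 ± 0.155 CPM in the control group, by 1.32 ± 0.37. Abca2, the most abundant of them in CPM and named after its values were seen, was at -0.05 ± 0.06.

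In lipoprotein lipase handling and lipoprotein uptake, 11 of 19 genes were tested, of which 6 rose, 2 fell and 3 did not pass; the median was 0.16. With 1 library left out, 4 to 6 of the list rose. Receptors that Mylip marks for breakdown went different ways. Vldlr, a receptor for triglyceride-rich lipoproteins, rose to 76.6 ± 2.08 CPM in the inhibitor group, against 30.6 ± 0.849 CPM in the control group (SD, n = 3 each; log2 change 1.32 ± 0.07), and Lrp8, named after its values were seen, fell by 0.41 (SE 0.08). The fatty acid and lipoprotein scavenger receptor gene Cd36 rose 3.48-fold, with 105.97 ± 6.34 CPM in the inhibitor group and 30.5 ± 2.6 CPM in the control group (adjusted p = 6.04e-11, edgeR). Gpihbp1, the anchor of lipoprotein lipase on capillaries, had 0 counts in all 6 libraries.

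Of 17 phospholipid acyltransferases and phospholipases, the kin of Lpcat3, all 17 were tested, of which 2 rose, 4 fell and 11 did not pass; the median was -0.05. Only 1 rose without inhibitor library 1 or 3 or without control library 2 or 3. The acyltransferase gene Agpat2 changed by -0.47 ± 0.11, Agpat3 by 0.49 ± 0.11 and the lysosomal phospholipase gene Pla2g15 by -0.32 ± 0.08. Their adjusted p-values were 0.00245, 0.00283 and 0.00431 in edgeR's quasi-likelihood test.

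Markers of cell types moved beside these genes. Lpl, Apoe, Abca1 and Abcg1 are also known from macrophages. Of 16 macrophage markers, 15 were tested, of which 7 rose, 2 fell and 6 did not pass. Their summed level was 326.1 to 345.4 CPM in inhibitor libraries and 277.6 to 297.4 CPM in control libraries. That sum is set mostly by the most abundant markers and does not stand for the list as a whole. Spic, a factor of iron-recycling macrophages, and Slc40a1, the iron exporter, rose by 2.36 ± 0.21 and 1.37 ± 0.11, the mannose receptor gene Mrc1 changed by -0.96 ± 0.12, and Adgre1, which encodes F4/80, had -0.003 ± 0.065. These 4 markers were named after their values were seen. No macrophage marker was at 0 counts in all 6 libraries, and Timd4 was untested. All 9 megakaryocyte markers were higher, with a summed level of 2969 to 3106 CPM in inhibitor libraries and 1290 to 1504 CPM in control libraries. The part of either cell type in the levels of the 9 genes was not tested.

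The other marker lists were smaller or mixed. Of 10 adipocyte and stroma markers, 2 were tested, 1 higher and 1 lower, with a summed level of 16.2 to 20.1 CPM in inhibitor libraries and 20.3 to 22.1 CPM in control libraries. Fabp4, a fatty acid binding protein gene of adipocytes and also of macrophages and endothelium, rose 1.78-fold, with 3.36 ± 0.693 CPM in the inhibitor group and 1.9 ± 0.539 CPM in the control group (adjusted p = 0.0178, edgeR), and Pdgfrb, a stromal receptor gene, was lower. Adipoq and Plin1, which define adipocytes, had 2 and 0 counts over all 6 libraries. Of 8 dendritic cell markers, 3 rose, 3 fell and 2 did not pass (summed 497.1 to 519.5 CPM in inhibitor libraries and 421.6 to 493.9 CPM in control libraries). Of 10 neutrophil markers, 9 were tested, 5 higher and 4 lower (5305 to 5406 CPM in inhibitor libraries and 5930 to 6616 CPM in control libraries). The higher ones were S100a8 (3.08-fold), S100a9 (3.10-fold), Ngp (3.16-fold), Camp (3.23-fold) and Ltf (1.64-fold). Of these, Camp was at a low level (1.88 ± 0.981 CPM in the inhibitor group and 0.577 ± 0.215 CPM in the control group). The lower ones were Mpo, Elane, Prtn3 and Mmp8, with log2 changes of -0.27, -0.41, -0.39 and -0.29. Mpo made up most of the sum, at 4263 to 4364 CPM in inhibitor libraries and 4910 to 5445 CPM in control libraries. Of 10 stem cell markers, 8 were tested, 3 higher, 2 lower and 3 not past the threshold (843.6 to 883.7 CPM in inhibitor libraries and 801.98 to 840.03 CPM in control libraries). Procr rose 7.08-fold and Slamf1 3.24-fold, Hlf and Ly6a had log2 changes of -0.92 and -0.41, and Kit (0.02 ± 0.06), Cd34 (0.10 ± 0.05) and Mecom (-0.70 ± 0.48) did not pass. Fgd5 was untested and Hoxb5 had 0 counts in all 6 libraries. Of 8 erythroid markers, 5 were tested, 2 higher, 1 lower and 2 not past the threshold (381.4 to 386.5 CPM in inhibitor libraries and 365.3 to 434.7 CPM in control libraries). Of 6 B cell markers, 2 were tested, both lower (9.8 to 10.5 CPM in inhibitor libraries and 16.9 to 18.97 CPM in control libraries). Of 6 endothelial markers, 4 were tested, 2 higher and 2 not past the threshold (611.98 to 626.4 CPM in inhibitor libraries and 328.2 to 341.5 CPM in control libraries). Most of that difference lay in Vwf, also a gene of megakaryocytes and platelets, at 466.3 ± 4.61 CPM in the inhibitor group and 208.4 ± 12.3 CPM in the control group (SD, n = 3 each). Pecam1 was higher too (1.19-fold), Kdr (0.11 ± 0.17) and Tek (-0.07 ± 0.39) did not pass, and the defining genes Cdh5 and Emcn had 0 to 4 counts in a library. The part of these cell types was not tested either.

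The genes whose pattern over the 6 libraries was most like that of Abca1 were sought among 10448 genes with a mean of at least 5 CPM, by the root mean square difference of centred log2 CPM. A430089I19Rik was nearest (0.141), followed by the proton pump subunit gene Atp6v0d2 (0.201), the arrestin-domain gene Arrdc3 (0.206), the cytokine gene Il1b (0.224) and the transporter gene Slco5a1 (0.23). Their log2 changes ran from 1.96 to 2.45. Nearest to Apoe were Ache, which encodes acetylcholinesterase (0.0508), the receptor gene Fgfr1 (0.064), the platelet integrin gene Itga2b (0.0703), the phosphatase regulator gene Ppp1r15a (0.0783) and the kinase gene Src (0.0799), with log2 changes of 1.08 to 1.22.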

How the data were processed

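The deposited values were read counts per RefSeq gene symbol, per the file headers, not normalised. A second deposited column held RPKM values, and the library totals they imply exceeded the summed counts by 0.22 to 0.35% in inhibitor and 0.49 to 8.68% in control libraries, so levels were computed from the counts. Per the submitters' processing notes, bcl2fastq 2.20 and the mm10 build were used. The aligner, counter and strand of counting were not given in the sources used here.

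Genes were kept by filterByExpr (minimum count 10, minimum total 15) and scaled by TMM. The test was the quasi-likelihood one of edgeR 4.0.16 (R 4.3.3) in its robust form, with p-values adjusted over all 12978 genes by Benjamini-Hochberg and a threshold of 0.05. The SE of a log2 change was taken from the test's F statistic. The 9 genes and all lists were chosen with earlier results of these data known. Named from each list were the 3 genes past the threshold with the smallest p-values, besides the 9 genes and the genes nearest in pattern to Abca1 and Apoe. Any other gene was named after its values were seen. One gene that this rule names, and one marker gene, are not reported here. Log2 CPM used a prior count of 2. Tested on simulated data with 12978 genes, the procedure recovered 17, 35, 46 and 48 of 50 genes changed by 1.25-, 1.5-, 2- and 4-fold, and called 14 unchanged genes. The simulation changed far fewer genes than passed in the data and gave both groups the same dispersion. Its rates may therefore not hold for the data. DESeq2 1.42.0 and limma-voom (limma 3.58.1) were among the alternatives. Sequences came from RefSeq (GRCm38.p6), and GENCODE M21, on the same build, gave the untranslated regions. Counting error only is covered by any statement on depth, which was 16873188 to 21245861 counts per library.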

Additional observations from a re-analysis of the deposited data

How the results depend on the processing

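The 15 alternatives were scaling by RLE, no low-count filter, a stricter one, the replicate number as a block, DESeq2, limma-voom, leaving out each library in turn, leaving out control libraries 1 and 3 together, TMM computed without Rn45s and the top 50 genes by count, and a threshold of 0.01. Of the 9 genes, 6 were higher in each setting except the threshold of 0.01, which gave 5, and 0 were lower in all 15. Log2 changes ran from 2.07 to 2.50 for Abca1, 1.70 to 1.88 for Abcg1, 1.25 to 1.40 for Lpl and 0.99 to 1.38 for Apoe. Lpcat3, not past the threshold, was between -0.082 and 0.0081 when 1 library was left out, and above 0 without control library 1. At a threshold of 0.01, 1584 of all genes were lower, as were 3 genes of cholesterol storage and transport, and 1 other ABC transporter and 1 phospholipid gene were higher. Partners and coregulators that were lower numbered 2 with no filter, 2 with limma-voom, 3 with DESeq2 and 1 to 4 when a library was left out (4 without control library 2, 3 without inhibitor library 1, 2 without inhibitor library 2 or 3). Other ABC transporters had 1 lower gene with the stricter filter; leaving out a library gave 0 to 1 lower (1 without control library 1) and 1 to 3 higher (1 without inhibitor library 2). Phospholipid genes had 2 lower without control libraries 1 and 3, and 1 to 2 higher when a library was left out (1 without inhibitor library 1 or 3 or control library 2 or 3). Correlations of same-numbered deviations were 0.01 to 0.06, against -0.05 to 0.02 for libraries of different numbers. Each inhibitor library was nearest to the control library of its own number, while control library 2 was nearest to inhibitor library 3. The labels state no shared batch or animal for a replicate number, so the main fit used no pairing. With the replicate block, 2831 of all genes were higher and 2842 lower, against 2646 and 2613 in the main fit. In that setting, 2 partners and coregulators were lower, and no call on the 9 genes changed. Depth limits Nr1h3 most, with 52 to 95 counts per library. The cause of these shifts was not tested.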
